A study of Arabidopsis thaliana with 8 samples.

Results

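GH3.3, LBD16 and ARR16 are Arabidopsis thaliana genes known for rapid induction by plant hormones, the first pair by auxin and the last by cytokinin. Each was read from the probe set assigned to it on the ATH1 array. With the array's name set before the probe set, these were ATH1.245076_at for GH3.3, ATH1.265856_at for LBD16 and ATH1.266078_at for ARR16. These are 3 of the 22746 probe sets that are not controls, and all 3 passed the filter on low signal. GH3.3 (AT2G23170) belongs to the GH3 enzymes, which join the auxin indole-3-acetic acid to amino acids and so lower free auxin. LBD16 (AT2G42430) is a transcription factor of the lateral organ boundaries domain family that acts in lateral root initiation. ARR16 (AT2G40670, named RR16 in the gene records) is a type-A response regulator, a small receiver protein that dampens cytokinin signalling.

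Auxin acts by removing Aux/IAA repressors from auxin response factors, and GH3 and LBD genes are among the targets that are then transcribed. Cytokinin is read by histidine kinases, which pass phosphate to type-B response regulators, and these switch on the type-A genes as a feedback. Both hormones take part in the way roots and shoots adjust their growth to nitrate supply.

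The data came from wild-type Col-0, the common laboratory accession, grown in liquid culture under continuous light and 10 days old. The 4 groups paired each organ, root or shoot, with each treatment, and each held 2 arrays. Nitrate was given as 250 µM potassium nitrate for 20 min, and the control was 250 µM potassium chloride (KCl) for 20 min, so both treatments carried potassium and chloride stood in for nitrate. No hormone was applied, so the hormone response that names these genes could not be checked here.

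Each value is a signal intensity, the brightness of a probe set in arbitrary units, scaled by the authors so that arrays can be set side by side. Differences are in log2(signal + 16), which shrinks changes at low signal, and come from a limma fit of 13647 probe sets on all 8 arrays with p-values adjusted by Benjamini-Hochberg over all of them. Whether the replicates of a group were separate cultures is not in the labels, so the p-values reflect only the spread of these samples, part or all of which could be technical. The organ labels were checked on marker genes. In KCl the mean signal of the root hair expansin EXPA7 was 153 in roots and 17.0 in shoots, and SBPASE, an enzyme of carbon fixation, had 34.7 in roots and 956 in shoots. EXPA18 was on the root side and RCA on the shoot side too (limma, adjusted p = 0.000333 and 8.78e-06), and the beta-glucosidase gene PYK10, listed for roots, did not pass (adjusted p = 0.304). In bulk organs, fewer cells of a type and less RNA per cell cannot be told apart.

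GH3.3 had its higher signals in shoots. They were 117 and 111 in KCl and 132 and 108 in nitrate, for replicates 1 and 2 in that order. In roots the signals were 10.1 and 17.0 in KCl and 1.36 and 7.80 in nitrate. Every shoot array was above every root array, and in roots every nitrate array was below every KCl array, while in shoots the treatments overlapped. The order of shoots above roots without overlap was found in 30.9% of tested probe sets in KCl and likewise in 30.9% in nitrate. Nitrate below KCl without overlap in roots was found in 21.9%.

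The organ difference of GH3.3 was far larger than the spread between replicates. Its mean signal in KCl was 114 ± 4.26 in shoots against 13.6 ± 4.88 in roots (SD, n = 2 each). With no detection calls used here, whether the root signals of GH3.3, and of ARR16 further on, lie above background is not known, so no ratio is given over them. Roots minus shoots gave a log2 difference of -2.14 ± 0.23 in KCl (SE; limma, adjusted p = 0.00013) and of -2.74 ± 0.23 in nitrate (limma, adjusted p = 3.48e-05). This is a common kind of result: 19.2% of tested probe sets were called lower in roots in KCl and 19.6% in nitrate. GH3.3 had root signals under 33.3, the mean over all arrays that a probe set had to exceed to be tested, so it entered the test through the shoot arrays and the size of its organ difference depends on the constant added. In nitrate it ran from -4.72 at a pseudocount of 1 to -1.42 at 64, and it passed at both.

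LBD16 had the opposite order, with the higher signals in roots. In roots it stood at 69.9 and 72.0 in KCl and at 54.7 and 51.2 in nitrate. In shoots it stood at 31.3 and 38.3 in KCl and at 38.4 and 34.3 in nitrate. All root arrays were above all shoot arrays, the nitrate arrays of roots lay between the root KCl arrays and the shoots, and the shoot treatments overlapped. Of tested probe sets, 37% had roots above shoots without overlap in KCl and 37.9% in nitrate.

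In KCl the mean signal of LBD16 was 70.9 ± 1.51 in roots and 34.8 ± 4.93 in shoots (SD, n = 2 each), a ratio of 2.04. The log2 difference of 0.78 ± 0.18 passed (SE; limma, adjusted p = 0.00821), beside 18.6% of tested probe sets called higher in roots. Over the alternative settings this difference ran from 0.45 to 1.01. It missed the threshold without the first root KCl array (0.80, limma, adjusted p = 0.0515) and without the second (0.76, adjusted p = 0.0607). In nitrate the ratio was 1.46 and the difference of 0.40 ± 0.18 did not pass (SE; limma, adjusted p = 0.115; 95% interval -0.01 to 0.80). A call in KCl and none in nitrate does not show that the organ difference changed: the test of that change, which is the same as the test of unequal nitrate responses given further on, did not pass.

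ARR16 resembled GH3.3 in being high in shoots and low in roots. Its shoot signals were 88.2 and 114.5 in KCl and 69.4 and 96.8 in nitrate. Its root signals were 18.6 and 10.8 in KCl and 5.69 and 5.02 in nitrate. Shoot and root arrays did not overlap, and the root nitrate arrays were the lowest of all. Shoots above roots without overlap held for 30.9% of tested probe sets in each treatment. In shoots the treatments overlapped, and the second replicate was higher than the first in both.

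In KCl the mean signal of ARR16 was 101 ± 18.6 in shoots and 14.7 ± 5.54 in roots (SD, n = 2 each), with the same limit on the root signals. Roots minus shoots gave -1.94 ± 0.24 in KCl (SE; limma, adjusted p = 0.00026) and -2.20 ± 0.24 in nitrate (limma, adjusted p = 0.000123). Such calls were common, with 19.2% of tested probe sets called lower in roots in KCl and 19.6% in nitrate. As for GH3.3, root signals were under the filter value, and the difference in nitrate ran from -3.71 to -1.08 over the pseudocounts of 1 and 64 and passed at both.

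**Figure D1:**
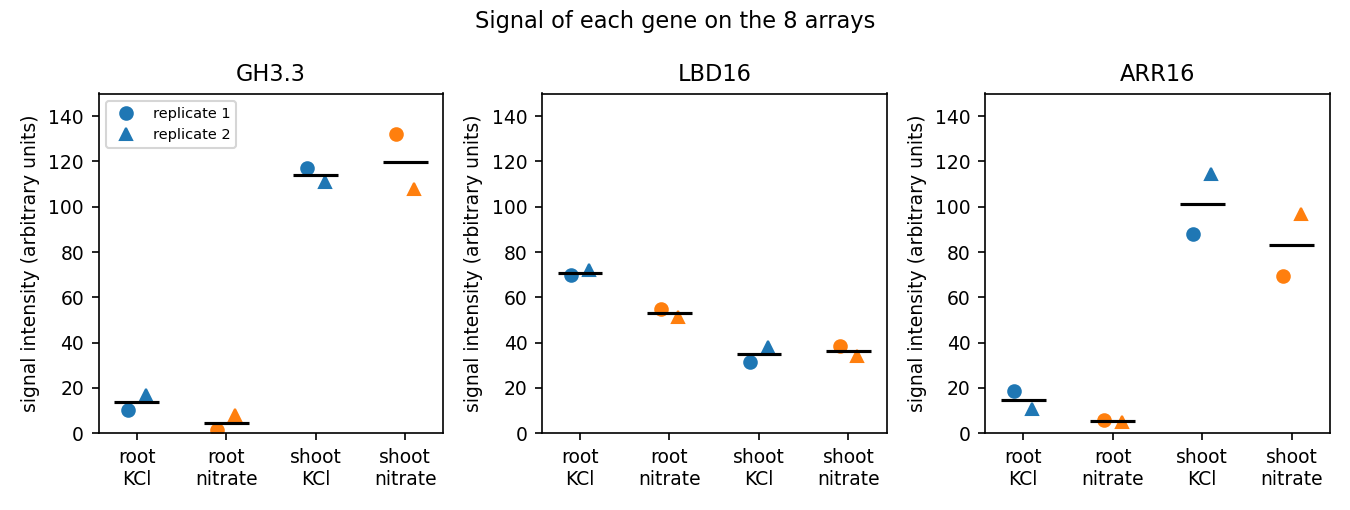
Signal intensity (arbitrary units, linear axis from 0) of GH3.3, LBD16 and ARR16 on each array, by group; circles are replicate 1, triangles replicate 2, and bars the means of n = 2. GH3.3 and ARR16 are high in shoots, LBD16 is high in roots, and for each gene both root nitrate arrays lie below both root KCl arrays.

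After 20 min of nitrate none of the 3 genes passed the test in roots, although each was lower on both nitrate arrays than on both KCl arrays. The mean root signal of LBD16 in nitrate was 74.6% of that in KCl, and no such share is given for GH3.3 and ARR16, whose root signals could not be set against background. Of all tested probe sets, 21.9% had nitrate arrays below the KCl arrays without overlap in roots and 13.2% above, while 1.03% were called higher and 0.103% were called lower. The 3 genes are thus among a large number with this order of arrays, and 0 of 3 were called.

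The log2 difference of GH3.3 in roots was -0.53 ± 0.23 (SE; limma, adjusted p = 0.872; 95% interval -1.06 to -0.004), with an unadjusted p of 0.0486. It was -0.59 between the arrays numbered 1 and -0.47 between those numbered 2. With 1 root array left out it ran from -0.30 (without nitrate replicate 1; limma, unadjusted p = 0.291) to -0.76 (without nitrate replicate 2; unadjusted p = 0.0249), and it came to -0.36 without KCl replicate 2. Its own KCl arrays differed by 0.34 and its nitrate arrays by 0.46 on the same scale. Among probe sets of like signal in that group, within a factor of 1.5, 10% of the differences between the samples of a group exceeded 0.65 in root KCl and 0.57 in root nitrate.

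ARR16 had -0.51 ± 0.24 in roots (SE; limma, adjusted p = 0.96; 95% interval -1.05 to 0.03), with -0.67 between the arrays numbered 1 and -0.35 between those numbered 2. It came to -0.33 without KCl replicate 1 and to -0.70 without KCl replicate 2. Its KCl arrays differed by 0.37 and its nitrate arrays by 0.05, and 10% of replicate differences at like signal exceeded 0.63 in root KCl and 0.62 in root nitrate. For both dim genes the size in roots rests on the pseudocount: with 1 in place of 16 the change was -1.64 for GH3.3 (limma, adjusted p = 0.631) and -1.26 for ARR16 (adjusted p = 0.412), and with 64 it was -0.18 for each.

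LBD16 was the brightest of the 3 in roots. Its log2 difference in roots was -0.34 ± 0.18 (SE; limma, adjusted p = 1; 95% interval -0.74 to 0.07), with -0.28 and -0.39 between same-numbered arrays. The root KCl arrays differed by 0.04 and the nitrate arrays by 0.07, against a level of 0.47 and 0.45 that 10% of probe sets of like signal exceeded. The fit draws its spread in part from all probe sets, so the closeness of these few arrays carries limited weight in the test. It also shares the spread of the shoot arrays. Over tested probe sets the SD of replicate differences was 0.50 and 0.47 in shoots (KCl and nitrate) and 0.30 and 0.29 in roots. With only the root arrays the SE of LBD16 was 0.14, and the difference did not pass (limma, adjusted p = 0.548).

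In shoots no change was detected, and the intervals leave room for moderate changes either way. GH3.3 had a log2 difference of 0.06 (limma, 95% interval -0.47 to 0.59) and LBD16 of 0.05 (-0.36 to 0.45). ARR16 had -0.25 (-0.79 to 0.29), with -0.29 and -0.21 between same-numbered arrays. Leaving out 1 shoot array moved ARR16 to -0.41 (without KCl replicate 1), -0.086 (without KCl replicate 2), -0.048 (without nitrate replicate 1) or -0.45 (without nitrate replicate 2). The treatments overlapped for all 3, while over all tested probe sets 8.91% were higher and 11% lower in nitrate without overlap. The adjusted p was 1 for each gene, and in this comparison 0.0953% of tested probe sets were called, all of them higher. ARR16 was lower in nitrate in 4 of 4 same-numbered pairs over both organs, as were 11.7% of tested probe sets. GH3.3 and LBD16 were lower in 3 of 4, as were 29.0%. These pairs rest on replicate numbers that the labels do not explain.

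The direct test of unequal responses, root change minus shoot change, did not pass for any of the 3. The difference was -0.59 ± 0.33 for GH3.3, -0.38 ± 0.25 for LBD16 and -0.26 ± 0.33 for ARR16 (SE; limma, adjusted p = 1 for each). The 95% intervals were -1.34 to 0.15, -0.95 to 0.19 and -1.02 to 0.50. Over all tested probe sets 0.0147% were called here.

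**Figure D2:**
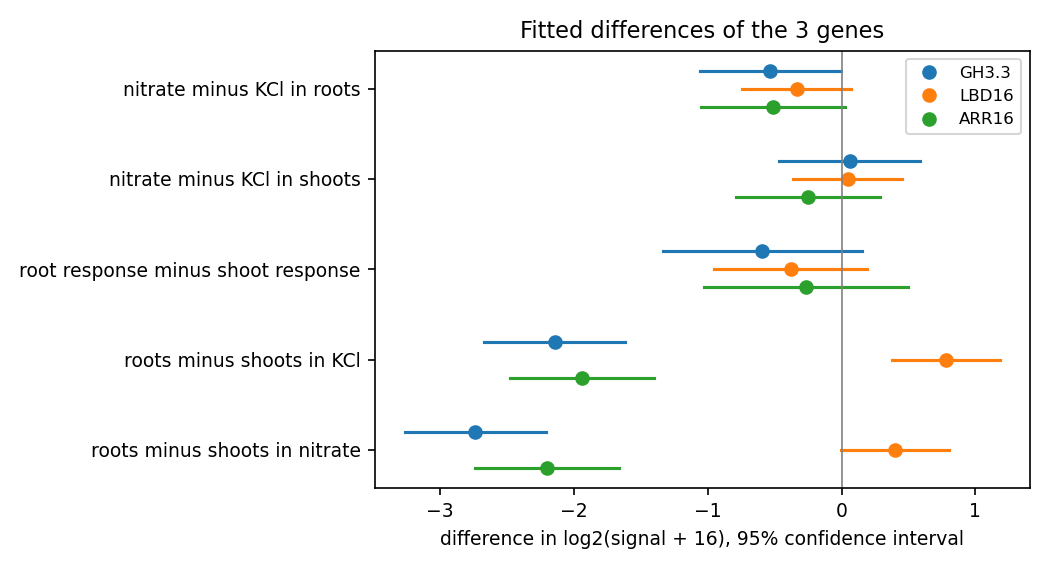
Fitted differences in log2(signal + 16) of GH3.3, LBD16 and ARR16 (points) with 95% confidence intervals (lines), from the limma fit on 8 arrays. The organ differences of GH3.3 and ARR16 lie near -2 or below, while every nitrate difference is smaller than 0.6 in size.

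The relatives of these genes were followed through 11 lists of 145 genes of auxin and cytokinin signalling, transport and turnover. The probe table names 23 of the 145, and 10 of these passed the filter, the 3 genes included. Genes of the auxin receptors, response factors and transporters and of the cytokinin receptors and response factors had no such probe set and were not analysed here. Other lists were covered in part only. Such a probe set was found for 2 of 10 type-A regulators and 7 of 29 Aux/IAA genes. It was found for 2 of 21 genes of cytokinin synthesis and removal, UGT76C1 and UGT76C2.

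In roots all 10 tested genes had a lower mean in nitrate, and 0 were called by limma in either direction. With the replicate number added to the fit within each organ, 3 of the 10 were called lower, beside 195 of all 13647 tested probe sets. The median log2 difference was -0.52, beside -0.03 over all tested probe sets, of which 58.1% were below 0. The nitrate arrays lay below the KCl arrays without overlap for 9 of 10, with the auxin oxidase gene DAO1 as the exception, beside the 21.9% given above. Among the 7 genes other than GH3.3, LBD16 and ARR16 this held for 6, with a median of -0.56. The lists were chosen with earlier results of these data known, and all genes were read on the same root arrays. These counts therefore describe the 10 genes only, and a shared fall was not tested. All 10 were also below 0 at pseudocounts of 1 and 64 and after quantile normalization, and 9 of 10 without the first root KCl array or without the second root nitrate array. With no filter on low signal 17 of 23 were below 0, with a median of -0.29, beside 56.6% and -0.02 over all probe sets. The 23 include the 10 genes above. Those above 0 were all too dim for the filter: GH3.1, IAA20, IAA31, IAA33, IAA34 and ARR19. IAA20 had the largest rise of these, 0.57 ± 0.19 (SE; limma, adjusted p = 0.652). Its root signals were 2.75 and 2.74 in KCl and 11.7 and 12.1 in nitrate, and could not be set against background.

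UGT76C2 and UGT76C1 encode cytokinin N-glucosyltransferases, which inactivate the hormone. UGT76C2 had root signals of 166 and 139 in KCl and 92.0 and 86.6 in nitrate, a difference of -0.68 ± 0.17 (SE; limma, adjusted p = 0.188). UGT76C1 had 40.9 and 42.7 in KCl and 23.3 and 23.2 in nitrate (-0.56 ± 0.19, adjusted p = 0.54). In both genes the nitrate arrays of roots lay below the KCl arrays, as in 21.9% of tested probe sets. Neither difference passed in the fit without replicate numbers.

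Of the other GH3 genes 2 were tested, and neither passed in roots in the fit without replicate numbers. GH3.17 had root signals of 607 and 798 in KCl and 405 and 488 in nitrate (-0.63 ± 0.20, limma, adjusted p = 0.402). GH3.5, named WES1 in the gene records, had 189 and 221 in KCl and 111 and 149 in nitrate (-0.61 ± 0.18, adjusted p = 0.363). Between organs GH3.17 was higher in roots in KCl by 1.98 ± 0.20 (SE; limma, adjusted p = 8.26e-05). GH3.5 was lower in roots by 0.65 (log2 difference of -0.65 ± 0.18, adjusted p = 0.023), on the same side as GH3.3.

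Of the rest, the repressor gene IAA18 had -0.29 ± 0.19 in roots, the auxin synthesis gene YUC2 -0.19 ± 0.22 and DAO1 -0.15 ± 0.34 (SE; limma, adjusted p = 1 for each). In shoots 6 of the 10 were below 0, with a median of -0.15, and 0 were called. Over all tested probe sets 53% were below 0, with a median of -0.01. Between organs in KCl, 3 of 10 were called higher in roots (GH3.17, LBD16 and UGT76C2) and 3 lower (GH3.3, GH3.5 and ARR16), beside 18.6% and 19.2% of tested probe sets. In nitrate 2 were called higher (GH3.17 and UGT76C2) and 5 lower (GH3.3, GH3.5, IAA18, ARR16 and UGT76C1), beside 18.6% and 19.6%.

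**Figure D3:**
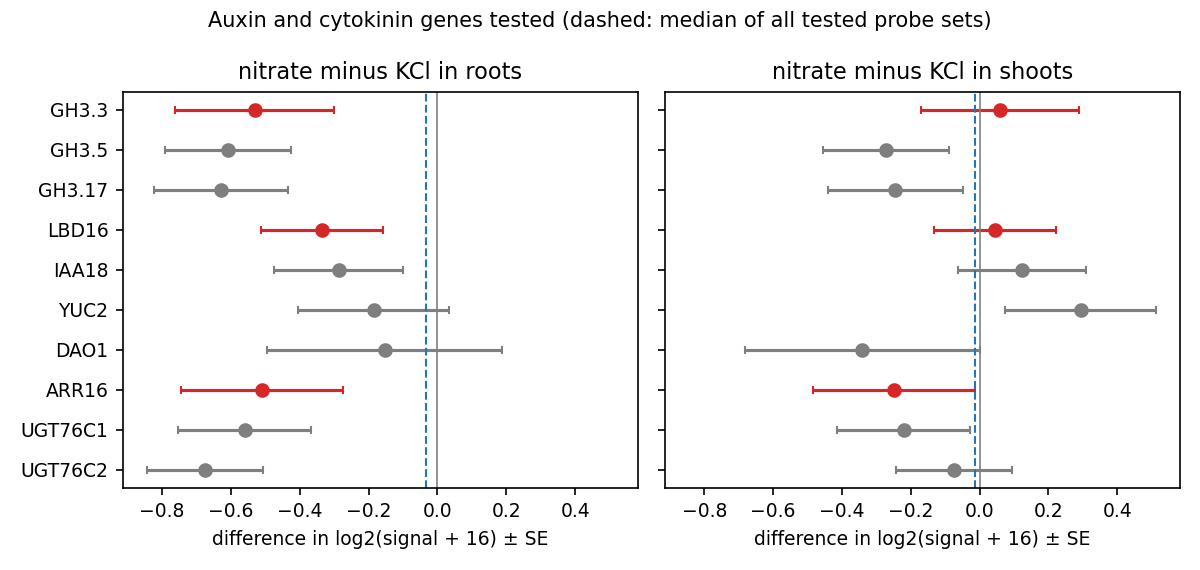
Difference between nitrate and KCl in log2(signal + 16), with SE, for the 10 auxin and cytokinin genes tested, in roots (left) and shoots (right); GH3.3, LBD16 and ARR16 are red, and the dashed line is the median of all tested probe sets. All 10 points are below 0 in roots and 6 of 10 in shoots, and none passed the test in the fit without replicate numbers.

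The closest relatives of LBD16 and ARR16 with a named probe set were too dim for the filter. LBD29, which acts with LBD16 in lateral root formation, had root signals of 28.4 and 36.6 in KCl and 16.3 and 32.6 in nitrate, and shoot signals between 1.47 and 7.17. Like LBD16 it was higher in roots, and in a fit with no filter its organ difference in KCl was 1.43 ± 0.24 (SE). Its shoot signals could not be set against background, so this size depends on the constant added. LBD29 was named after its values were seen. ARR15, another type-A regulator, had 27.5 and 22.0 in root KCl and 3.305 and 20.6 in root nitrate, and its shoot signals ran from 2.85 to 38.8, so the organs overlapped, unlike for ARR16.

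Among 7221 other tested probe sets matched to 1 gene, the patterns nearest to each gene were found by the root mean square difference of centred log2 values over the 8 arrays. For GH3.3 they were AT1G32160 (0.15), AT1G35420 (0.17) and AT1G66940 (0.18). For LBD16 they were ATG8E of autophagy (0.06), AT1G20030 (0.06) and NET4B (0.08). For ARR16 they were AT4G18810 (0.13), AT1G77090 (0.15) and AT3G09580 (0.17). ARR16 ranked 168 in nearness to GH3.3 (0.36), and LBD16 ranked 5720 (1.53).

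**Figure D4:**
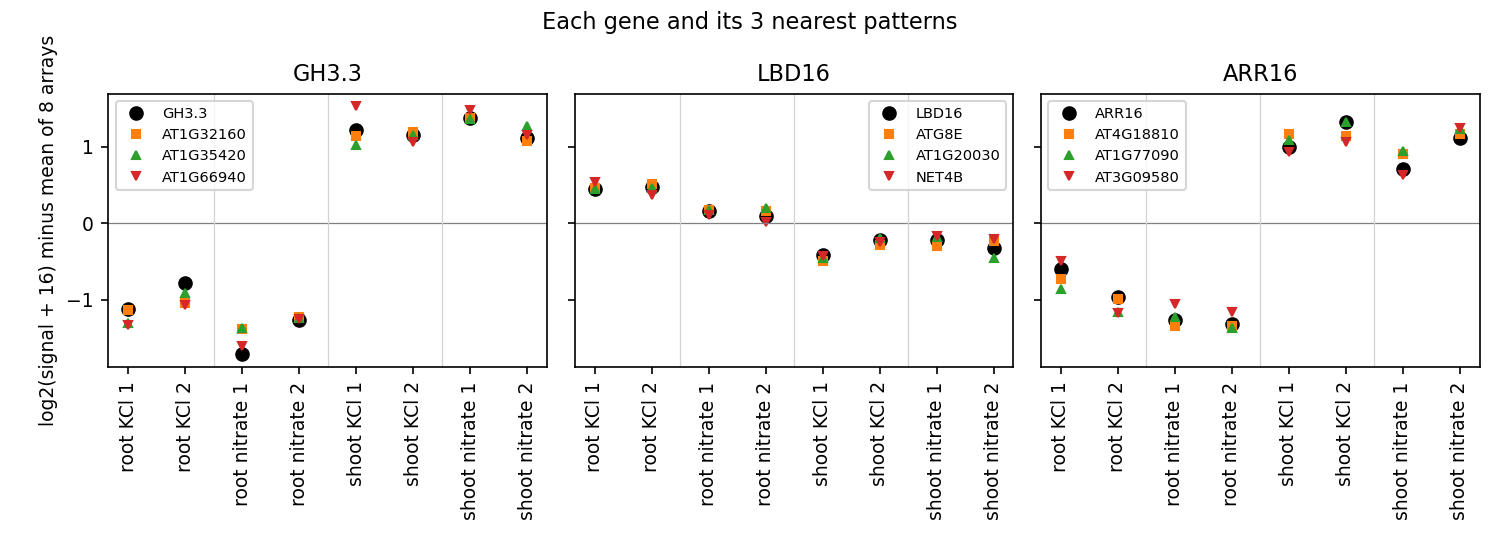
Log2(signal + 16) minus the mean of the 8 arrays for GH3.3, LBD16 and ARR16 (black circles) and the 3 probe sets with the nearest pattern to each (coloured), array by array. GH3.3 and ARR16 and their nearest patterns are above 0 on all shoot arrays, and LBD16 and its nearest patterns are above 0 on all root arrays.

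Neighbouring genes could be compared at 1 site only. The 6 protein-coding genes next to the 3 in the TAIR10.1 gene order include the LBD17 gene (ASL15) beside LBD16. The probe table has a probe set of 1 gene for 2 of the 6, and 1 was tested. AT2G40660, next to ARR16 and chosen after its values were seen, had root means of 171 in KCl and 175 in nitrate and shoot means of 144 and 136. It did not share the organ difference of ARR16 (roots minus shoots in KCl 0.22 ± 0.20, SE; limma, adjusted p = 0.42).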

How the data were processed

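RNA of roots and shoots was hybridised to Affymetrix ATH1 arrays, 1 per sample. The deposited values are signal intensities (linear, 1 for every probe set on every array), made with MAS5 and GCOS per the submitters' processing notes; for versions and the scaling target, nothing is given in the sources used here, and no detection calls were used. The mean after trimming was 100.01 on every array, so values were used as scaled. Medians were 42.3 to 49.9. Groups and replicate numbers came from the titles.

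After removal of 64 control probe sets, those with a mean above the 40th percentile (33.3) were tested as log2(signal + 16) with limma 3.58.1 (lmFit, eBayes with a trend) in R 4.3.3, on 4 groups and 8 arrays, two-sided, with a threshold of 0.05 after Benjamini-Hochberg adjustment. The fit was run on simulated arrays with known changes and independent noise. Replicate differences of the real arrays correlated between groups, so that run checks the code only. An exact permutation test of 2 against 2 arrays cannot go below p = 0.333 and was not used. The number of arrays limits the precision.

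Names came from the platform's probe table, updated by gene identifier to TAIR10.1 records: 13513 probe sets have 1 gene, 503 several and 8730 none. The genes and lists were chosen with earlier results of these data known. Named were the 3 genes, list genes called in any comparison, up to 2 per list with the smallest root p, and the 3 nearest patterns. LBD29, ARR15, DAO1, AT2G40660 and the list genes above 0 in roots with no filter were partly named outside this rule, after their values were seen. Alternatives covered the pseudocount, quantile normalization, the filter, eBayes options, a replicate block, fewer arrays in the fit and each array left out.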

Additional observations from a re-analysis of the deposited data

How the results depend on the processing

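Of 252 values of GH3.3, LBD16 and ARR16 under the alternatives, 247 kept their direction and their side of the threshold. Many of them could not change direction. The eBayes options, the looser filter and the removal of an array outside the comparison leave the difference itself as it was. The call of LBD16 between organs in KCl was lost without either root KCl array, and its values with 1 array left out ran from 0.68 to 0.88. In shoots the small nitrate difference turned sign with 1 array left out. For GH3.3 it came to -0.069 when shoot nitrate replicate 1 was dropped (range -0.069 to 0.19). For LBD16 it came to -0.053 when shoot KCl replicate 1 was dropped and to -0.011 when shoot nitrate replicate 1 was (range -0.053 to 0.14). For ARR16 the range was -0.45 to -0.048. In roots it was -0.76 to -0.30 for GH3.3, -0.37 to -0.30 for LBD16 and -0.70 to -0.33 for ARR16. With the stricter filter at the 60th percentile none of the 3 was tested, and no fit on fewer arrays was possible for the difference between responses.

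The number of called probe sets depended more on the fit. In roots nitrate gave 155 calls, 264 when a replicate block was common to the organs, 517 with a block within each organ, 279 with only the root arrays, and 32 to 180 with 1 array left out. In shoots the 13 calls became 36, 82 and 1 in the same order, and 7 to 25 with 1 array left out. The difference between responses gave 2 calls, 20 at a pseudocount of 64, 6 and 80 with the blocks, and 0 to 1 with 1 array left out.

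The labels do not say what the replicate number marks. The difference between replicates 2 and 1 correlated between treatments across probe sets, with a Pearson r of 0.441 in roots and 0.665 in shoots, a hint from the data only. With the block within each organ GH3.3, ARR16 and LBD16 had adjusted p of 0.173, 0.234 and 0.498 in roots (limma). GH3.5, GH3.17 and UGT76C2 passed there as lower in nitrate (limma, adjusted p = 0.0145, 0.00847 and 0.0304). Of all 13647 tested probe sets, 195 were called lower in that fit. Signals near the low end of the arrays limit what can be said of GH3.3 and ARR16 in roots.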
